A study of Homo sapiens with 6 samples.

Results

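The stathmins, neurofilaments and olfactomedins are 10 genes that were read by 19 probe sets on NimbleGen expression arrays of HEK293, an established human line of embryonic kidney origin. Members were all probe sets whose gene name on the array, or another symbol of the same Entrez gene, is STMN1, STMN2, STMN3, STMN4, NEFL, NEFM, NEFH, INA, OLFM1 or OLFM2, and the array names 23596 genes in all. NEFM is listed under its older symbol NEF3. The genes were proposed with OLFM1 and STMN3 already known to lie among the lowest values after SET8 depletion, so every comparison that uses the SET8 shRNA arrays is given as a description.

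The arrays come from 3 groups of 2. Cells of the first group were transfected with an shRNA against SET8 (KMT5A, the enzyme that adds a single methyl group to lysine 20 of histone H4) for about 40 hours and then received Wnt3a conditioned medium for 7 hours. The second group carried a control shRNA and received the same Wnt3a medium, and the third carried the control shRNA and received control conditioned medium. All groups share the HEK293 line, the transfection and exposure to a conditioned medium. None of the 6 arrays has the SET8 shRNA in control medium. A SET8 shRNA difference that depends on Wnt3a therefore cannot be told apart from one that does not. The sample titles abbreviate the agent as si while the sample fields name an shRNA. Whether the 2 replicates of a group were grown separately is not stated, so the spread that the p-values rest on may be technical.

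Stathmins are small phosphoproteins that bind tubulin dimers and promote the disassembly of microtubules. STMN1 is cytosolic and abundant in dividing cells, whereas STMN2, STMN3 and STMN4 carry a membrane anchor and are known mainly from neurons. Neurofilaments are the intermediate filaments of axons, built from the light (NEFL), medium (NEFM) and heavy (NEFH) subunits together with alpha-internexin (INA). OLFM1 and OLFM2 are secreted glycoproteins of the olfactomedin family that are enriched in brain. HEK293 cells are known to transcribe a number of neuronal genes, neurofilament genes among them.

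Values are log2 of the deposited array intensity. Array medians lay between 7.63 and 7.79, and a random-sequence control set read between 4.66 and 4.84. Replicate arrays correlated across probe sets at 0.978 with SET8 shRNA, 0.955 with control shRNA in Wnt3a medium and 0.964 in control medium. A probe set was tested where it lay above the array median in at least 2 arrays, and of the member probe sets 14, from 7 genes, did so. INA, STMN2 and STMN4 and 2 of the 3 OLFM1 probe sets did not, and their differences come from the same model fitted to all probe sets. The shRNA target was lower in both SET8 shRNA arrays. KMT5A (AY064546) read 8.97 and 9.65 with SET8 shRNA, against 11.20 and 10.53 with control shRNA in Wnt3a medium and 11.03 and 10.75 in control medium, and its further probe set NM_020382 differed by -1.11 (SE 0.28) between the shRNAs. All 8 epithelial and kidney line markers, among them KRT8 and KRT18, were bright enough to test.

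STMN3, NEFH and OLFM1 were the members with the lowest values after SET8 shRNA, at 2.41-fold to 4.45-fold below control shRNA in Wnt3a medium on their tested probe sets. NEFL stood on the other side, 1.55-fold to 1.69-fold higher on its 3 probe sets, and STMN1 and OLFM2 had overlapping groups. Among the 14 tested member probe sets, 5 lay lower by at least 1.5-fold in both SET8 shRNA arrays than in both control shRNA arrays with Wnt3a medium, where 1.46% of all 23808 tested probe sets did. In the higher direction 0 of the 14 did, where 1.7% of all did. Without the 1.5-fold, 3 of the 14 were apart in the higher direction beside 17.1% of all, and 6 in the lower beside 17.0%. Since the same comparison was in view when the genes were chosen, nothing is read from these shares. In these bulk arrays, fewer cells that carry a transcript and less transcript per cell cannot be told apart.

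**Figure D1:**
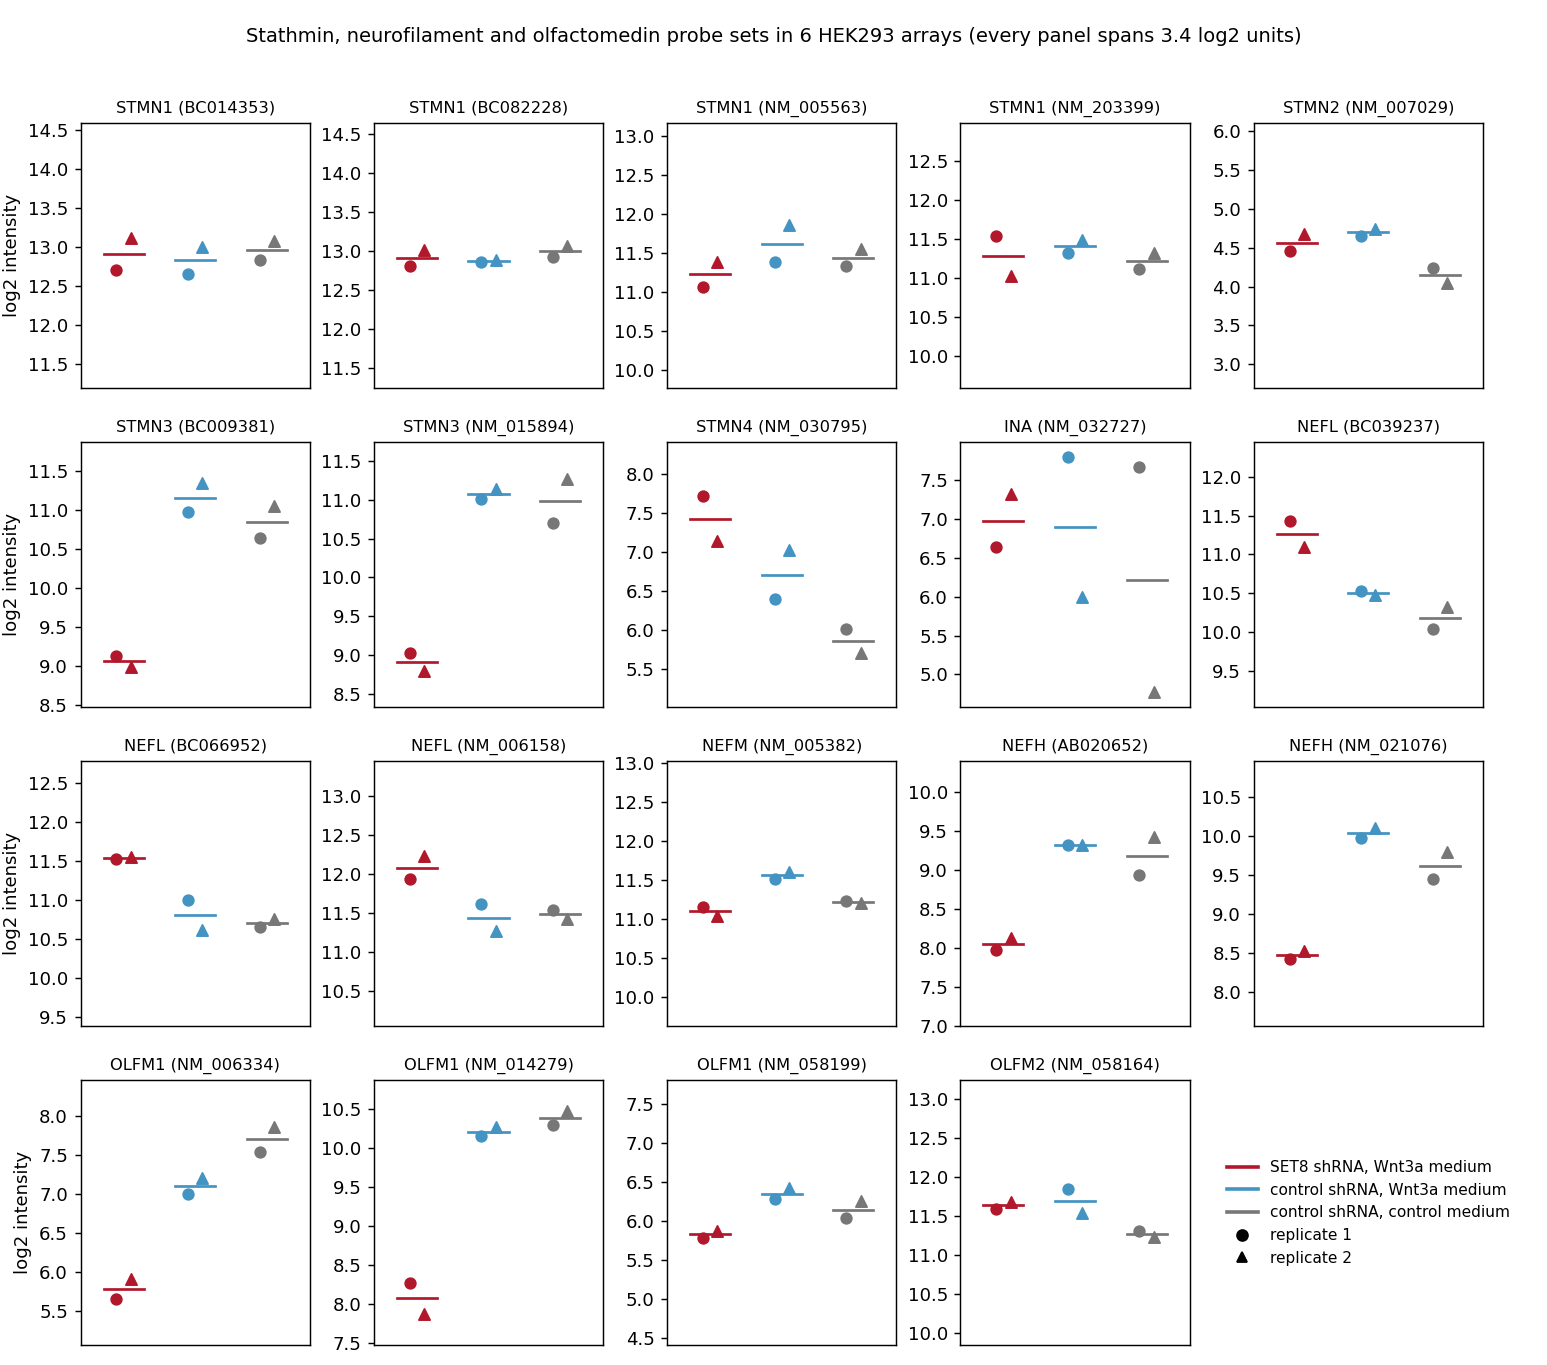
Log2 intensity of each of the 19 member probe sets (y axis, log2 units, every panel spanning the same range) in the 3 groups, with replicate 1 as circles, replicate 2 as triangles and group means as bars. STMN3, NEFH and OLFM1 sit low in both SET8 shRNA arrays, NEFL sits high, and INA spreads between replicates of the same group.

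Of the stathmins, STMN3, also called SCLIP, showed the largest difference. On probe set NM_015894 (chromosome 20, 61741504 to 61755224, hg18) it read 9.03 and 8.80 with SET8 shRNA, against 11.01 and 11.13 with control shRNA in Wnt3a medium and 10.70 and 11.27 in control medium. Both SET8 shRNA arrays lay below all 4 control shRNA arrays, and the control shRNA groups overlapped. The step between the 2 shRNAs under Wnt3a was -2.15 (SE 0.27), which is 4.45-fold lower. A further probe set of the same gene, BC009381, read 9.13 and 8.99 with SET8 shRNA, against 10.97 and 11.35 with control shRNA in Wnt3a medium and 10.64 and 11.05 in control medium. Its difference was -2.10 (SE 0.26), so both STMN3 probe sets gave nearly the same value. Against control shRNA with control medium the differences were -2.07 (SE 0.27) for NM_015894 and -1.79 (SE 0.26) for BC009381. Over all tested probe sets, 17 of 23808 lay at least as low as NM_015894 in the SET8 comparison, itself included, a share of 0.0714%.

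STMN1, the ubiquitous stathmin also known as oncoprotein 18, did not follow STMN3. Probe set BC082228 (chromosome 1, 26099648 to 26105478, hg18) read 12.81 and 13.01 with SET8 shRNA, against 12.86 and 12.89 with control shRNA in Wnt3a medium and 12.92 and 13.07 in control medium. The groups overlapped, with a difference of 0.04 (SE 0.23) between the shRNAs in Wnt3a medium. The other 3 STMN1 probe sets had overlapping groups in the SET8 comparison too, at 0.08 (SE 0.27) for BC014353, -0.12 (SE 0.26) for NM_203399 and -0.39 (SE 0.27) for NM_005563.

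STMN4, known as RB3, was dim, and below the array median in every array. It read 7.71 and 7.14 with SET8 shRNA, against 6.39 and 7.02 with control shRNA in Wnt3a medium and 6.01 and 5.70 in control medium (NM_030795, chromosome 8, 27149730 to 27171820, hg18). The groups did not overlap and were ordered control medium, Wnt3a medium, SET8 shRNA from low to high, although the step between the shRNAs, 0.72 (SE 0.35), left a gap of only 0.12 between the nearest arrays. The difference of SET8 shRNA with Wnt3a medium from control shRNA with control medium was 1.58 (SE 0.35). STMN2, or SCG10, which acts in axon outgrowth and repair, read between 4.05 and 4.74 on all arrays, about at or below the level of the random-sequence control. Its difference between the shRNAs was -0.13 (SE 0.27), at a brightness where the array gives no reading above background.

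The neurofilament subunits went in different directions. NEFH, the heavy subunit with the long phosphorylated tail, read 8.42 and 8.52 with SET8 shRNA, against 9.97 and 10.10 with control shRNA in Wnt3a medium and 9.45 and 9.79 in control medium (NM_021076, chromosome 22, 28206218 to 28217279, hg18). Both SET8 shRNA arrays lay below every control shRNA array. The step between the 2 shRNAs under Wnt3a was -1.56 (SE 0.24), 2.96-fold lower, and against control medium it was -1.15 (SE 0.24). A further NEFH probe set, AB020652, read 7.97 and 8.13 with SET8 shRNA, against 9.32 and 9.32 in Wnt3a medium and 8.93 and 9.42 in control medium with control shRNA. Its difference was -1.27 (SE 0.25), 2.41-fold lower, again with no overlap.

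NEFL, the light subunit that forms the core of the filament, had higher values with SET8 shRNA on all 3 of its probe sets. Probe set BC066952 read 11.53 and 11.55 with SET8 shRNA, against 11.0 and 10.61 with control shRNA in Wnt3a medium and 10.65 and 10.75 in control medium (chromosome 8, 24865811 to 24870043, hg18). Its difference between the shRNAs was 0.74 (SE 0.24). BC039237 read 11.43 and 11.10 with SET8 shRNA, against 10.53 and 10.48 in Wnt3a medium and 10.05 and 10.33 in control medium with control shRNA, a difference of 0.75 (SE 0.24). On NM_006158 the values were 11.94 and 12.23 with SET8 shRNA, against 11.62 and 11.27 in Wnt3a medium and 11.54 and 11.43 in control medium with control shRNA, a difference of 0.64 (SE 0.25). On each NEFL probe set both SET8 shRNA arrays lay above all 4 control shRNA arrays, by a smaller step than that of NEFH. The probe sets share a gene, and so are not independent readings of it.

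NEFM, the medium subunit, is transcribed from the neighbouring locus, with 32344 bases between the annotated NEFM and NEFL transcripts. It read 11.16 and 11.04 with SET8 shRNA, against 11.52 and 11.61 with control shRNA in Wnt3a medium and 11.23 and 11.20 in control medium (NM_005382, chromosome 8, 24827211 to 24832511, hg18). The SET8 shRNA arrays were below both other groups, with a difference of -0.46 (SE 0.22) from Wnt3a medium and of -0.12 (SE 0.22) from control medium. NEFM thus lay lower where NEFL lay higher, and 8.53% of all tested probe sets were as low as NEFM in the SET8 comparison, against 3.24% to 4.79% as high as the NEFL probe sets.

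INA, which co-assembles with the neurofilament subunits, did not separate by group. Its probe set (NM_032727, chromosome 10, 105026909 to 105040093, hg18) read 6.63 and 7.31 with SET8 shRNA, against 7.79 and 6.0 with control shRNA in Wnt3a medium and 7.66 and 4.77 in control medium. All groups overlapped, and the SE of its differences was 0.93. In both control shRNA groups replicate 1 lay above replicate 2, and in the SET8 shRNA pair it lay below. Across tested probe sets the replicate differences of the control shRNA groups correlated at 0.75, and those of the SET8 shRNA pair at -0.29 with either, so a spread of this form was not confined to INA. Whether it accounts for the INA values was not tested.

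**Figure D2:**
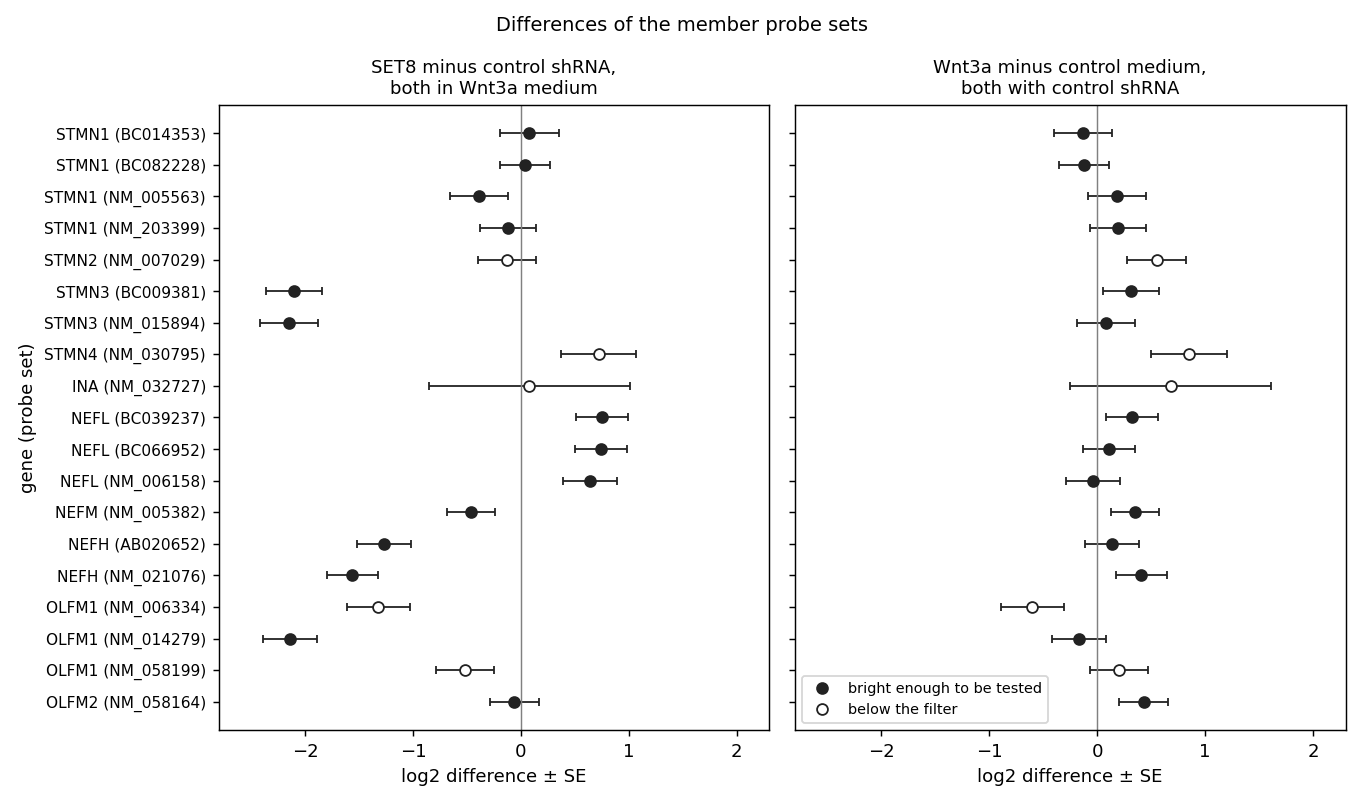
Log2 difference with its standard error (x axis, log2 units) for each member probe set (y axis), for SET8 minus control shRNA in Wnt3a medium on the left and Wnt3a minus control medium with control shRNA on the right. On the left, the probe sets of STMN3, NEFH and OLFM1 lie below 0 and those of NEFL above it. On the right, the tested probe sets lie between -0.17 and 0.43.

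OLFM1, a secreted glycoprotein also called noelin that acts in neuronal differentiation, had its lowest values in the SET8 shRNA arrays on all 3 of its probe sets. NM_014279, which spans the longest annotated transcript (chromosome 9, 137106991 to 137152845, hg18), read 8.27 and 7.87 with SET8 shRNA, against 10.15 and 10.27 with control shRNA in Wnt3a medium and 10.30 and 10.47 in control medium. The step between the 2 shRNAs under Wnt3a was -2.14 (SE 0.25), 4.41-fold lower, and against control medium it was -2.31 (SE 0.25), 4.97-fold lower. Of all tested probe sets, 18 lay as low in the SET8 comparison.

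The remaining OLFM1 probe sets read shorter transcripts that begin at the same position, and they were dimmer. NM_006334 (ending at 137129768) read 5.65 and 5.90 with SET8 shRNA, against 6.99 and 7.20 with control shRNA in Wnt3a medium and 7.53 and 7.86 in control medium. The SET8 shRNA arrays differed by -1.32 (SE 0.29) from control shRNA in Wnt3a medium and by -1.92 (SE 0.29) from control medium, without overlap between any groups. NM_058199 (ending at 137109058) read 5.79 and 5.88 with SET8 shRNA, against 6.28 and 6.43 in Wnt3a medium and 6.04 and 6.26 in control medium with control shRNA, a difference of -0.52 (SE 0.27) between the shRNAs. All 3 therefore pointed the same way, with the smallest difference on the dimmest probe set.

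OLFM2, the closest relative of OLFM1 among the members, did not follow it. It read 11.59 and 11.68 with SET8 shRNA, against 11.85 and 11.54 with control shRNA in Wnt3a medium and 11.30 and 11.23 in control medium (NM_058164, chromosome 19, 9825393 to 9908070, hg18). The SET8 shRNA arrays fell between the Wnt3a arrays, with a difference of -0.06 (SE 0.23), and both groups with Wnt3a medium lay above both arrays with control medium.

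The promoters of STMN3 and OLFM1, the 2 genes already known to lie low when the members were proposed, are shown. They run from 250 bases before to 50 after an annotated start (RefSeq, GRCh38.p14). The similar SET8 differences of the 2 genes go with that choice, so nothing is read from features their promoters share. The STMN3 window is chr20:63652717-63653016 on the minus strand and the OLFM1 window, the most upstream of 3 listed for that gene, is chr9:135075255-135075554 on the plus strand. Capitals mark the GC box GGGCGG on either strand.
STMN3: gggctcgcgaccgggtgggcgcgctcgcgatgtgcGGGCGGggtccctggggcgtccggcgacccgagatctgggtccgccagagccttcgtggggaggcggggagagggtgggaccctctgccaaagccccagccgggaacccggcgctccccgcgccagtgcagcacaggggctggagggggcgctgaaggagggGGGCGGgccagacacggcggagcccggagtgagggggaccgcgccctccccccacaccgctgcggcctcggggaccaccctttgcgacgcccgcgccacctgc
OLFM1: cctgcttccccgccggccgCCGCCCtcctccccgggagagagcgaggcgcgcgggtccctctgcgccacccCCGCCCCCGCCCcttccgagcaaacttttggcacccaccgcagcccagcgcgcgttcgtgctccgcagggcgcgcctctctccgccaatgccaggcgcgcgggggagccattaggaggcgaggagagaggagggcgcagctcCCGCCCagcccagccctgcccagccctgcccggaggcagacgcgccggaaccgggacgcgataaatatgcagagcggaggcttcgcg
The STMN3 window held 2 GC boxes and was 77.7% G or C with 35 CpG dinucleotides, and the OLFM1 window held 4, was 74.7% G or C and had 38 CpG. Over all 35116 promoters of the same length the medians were 58.7% and 14 CpG, and 45.0% held a GC box. The windows were also searched on both strands for the CCAAT box, which is found in 34.6% of all promoters. The OLFM1 window held 1, outside the GC boxes. The TATA box, searched as TATAAA, occurs in 11.5% of all promoters, and the core that TCF/LEF factors of the Wnt pathway bind, searched as CTTTGA, occurs in 12.9%. For RE1, the element that the neuronal repressor REST binds, the left arm TTCAGCACC occurs in 0.376% of all promoters. Its right arm was searched as GGACAGC, and occurs in 6.03%. None of these 4 runs of letters was found in either window. For each of OLFM1, STMN1 and OLFM2 the table lists 3 windows. The other 2 of OLFM1 were 70.3% and 72.3% G or C, with 0 and 4 GC boxes. Those of STMN1 lay between 64.3% and 74.3% with 0 to 5 GC boxes, and those of OLFM2 between 54.7% and 80.7% with 1 to 6. Which of its starts a gene used in these cells was not measured. Of the 10 genes, 5 had promoters in the table, and NEFH has none there.

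The medium comparison, Wnt3a minus control medium with control shRNA in both, asks whether the members respond to Wnt3a. It shares its control shRNA arrays in Wnt3a medium with the comparison the genes were chosen on, so its counts and directions are not independent of that choice. The SET8 shRNA arrays enter only the estimate of the spread and the brightness filter, which decides the probe sets that are tested. No member passed. Of the 14 tested member probe sets 0 had a limma adjusted p under 0.05 (Benjamini-Hochberg, over all 23808), where 0% of all tested probe sets did, and 0 had an unadjusted p under 0.05, where 2.14% did. The differences ran between -0.17 and 0.43, with a median of 0.16 beside 0.02 over all tested probe sets, and 10 of the 14 were above 0 beside 53.0% of all, from which nothing is read. The largest on the tested side were OLFM2 at 0.43 (SE 0.23), NEFH at 0.41 (SE 0.24, NM_021076) and NEFM at 0.35 (SE 0.22), each with an adjusted p of 1 in limma. The arrays of the 2 media did not overlap for these 3 probe sets, but the further NEFH probe set gave 0.14 (SE 0.25) with overlap. Of the 14, 5 had groups apart in the higher direction, where 12.0% of all tested probe sets did, and 2 in the lower direction, where 9.15% did, and 0 were apart by 1.5-fold, where 0.521% of all were in the higher and 0.122% in the lower direction. STMN3 was at 0.08 (SE 0.27) and 0.31 (SE 0.26) and OLFM1 at -0.17 (SE 0.25, NM_014279). Below the filter, STMN4 stood at 0.85 (SE 0.35), STMN2 at 0.55 (SE 0.27) and OLFM1 on NM_006334 at -0.60 (SE 0.29).

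In the comparison that combines both differences, SET8 shRNA under Wnt3a against control shRNA without it, 1 of the 14 tested member probe sets had a limma adjusted p under 0.05, where 0.0504% of all did. It was OLFM1 (NM_014279), among 12 probe sets past the threshold. By 1.5-fold or more, 2 of the 14 (both NEFL) lay apart in the higher direction, where 3.36% of all did, and 5 in the lower, where 1.65% did. This comparison shares its SET8 shRNA arrays with the one the genes were chosen on, so nothing is read from the call (adjusted p 0.048 in limma). Without 1 array the call was lost for each of the 4 arrays of the comparison, with a limma adjusted p of 0.563 and 0.653 without a SET8 shRNA array and of 0.0503 and 0.113 without a control medium array. In the SET8 comparison itself 0 of the 14 had an adjusted p under 0.05, as did 0% of all tested probe sets, and 8 had an unadjusted p under 0.05 beside 7.16% of all, from which nothing is read for the same reason. Those 8 were the tested probe sets of STMN3, NEFH, NEFL and OLFM1. Under some alternative settings both STMN3 probe sets and OLFM1 (NM_014279) passed, for example at a limma adjusted p of 0.0408 with an intensity trend in the spread.

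**Figure D3:**
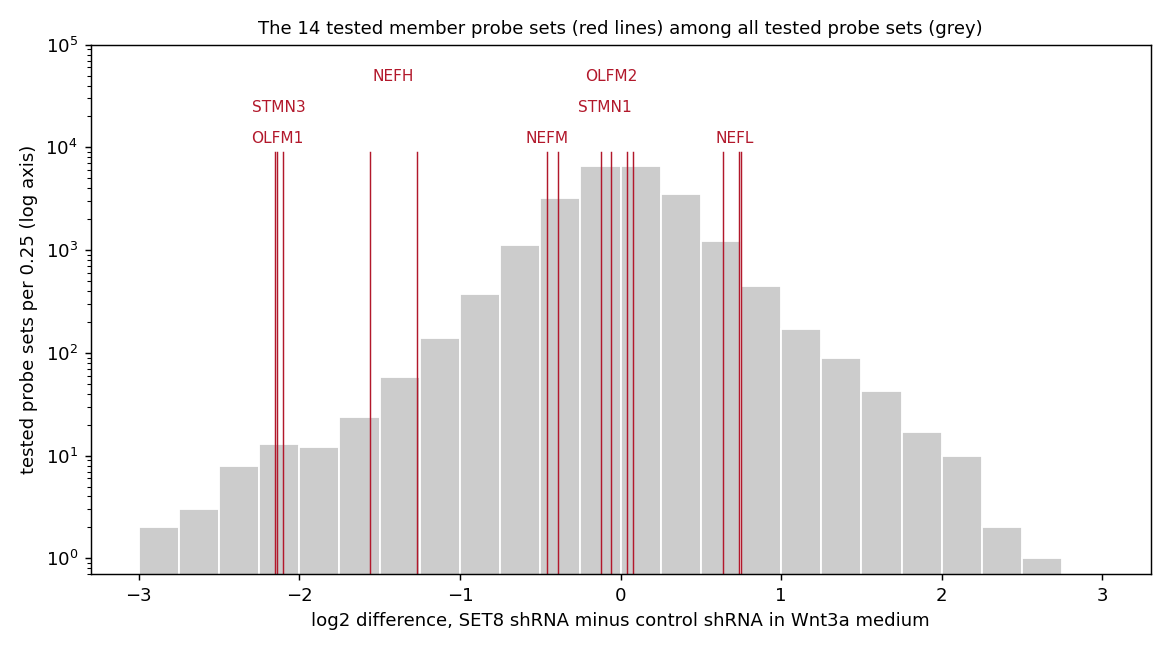
Number of tested probe sets per 0.25 of log2 difference (y axis, log scale) against the difference between SET8 and control shRNA in Wnt3a medium (x axis), with red lines at the 14 tested member probe sets. STMN3 and OLFM1 lie near -2.1 in the thin lower tail, NEFH at -1.56 and -1.27, NEFL at 0.64 to 0.75, and STMN1 and OLFM2 near the centre.

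Other genes of the axonal cytoskeleton lay on both sides of 0. Over all tested probe sets 51.1% were above 0 in the SET8 comparison, the share to set beside this list and those that follow. Of 25 axonal cytoskeleton and microtubule regulators, 20 were tested, and in the SET8 comparison 8 were above 0 and 12 below, with a median of -0.15 beside 0.01 over all tested probe sets and 0 past the threshold in either direction. MAP6, which stabilises microtubules against cold, read 9.35 and 9.20 with SET8 shRNA, against 7.97 and 7.80 with control shRNA in Wnt3a medium and 7.55 and 6.90 in control medium. Its difference between the shRNAs was 1.39 (SE 0.28), and a further, dimmer probe set gave 1.05 (SE 0.29). DPYSL4, of the collapsin response mediator family, which acts on the axonal cytoskeleton, read 7.62 and 8.13 with SET8 shRNA, against 9.46 and 8.71 in Wnt3a medium and 9.02 and 9.01 in control medium with control shRNA, a difference of -1.21 (SE 0.32). TUBB3, the neuronal beta-tubulin, was at -0.46 (SE 0.24). In the medium comparison 18 of the 20 tested genes of this list were above 0 and 2 below, beside 53.0% above 0 among all tested probe sets, with a median of 0.21 and 0 past the threshold.

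Among 8 other intermediate filament genes, 7 were tested, with 4 above 0 and 3 below, a median of 0.22 and 0 past the threshold. PRPH, the peripherin of peripheral neurons, which can co-assemble with neurofilaments, read 10.13 and 9.90 with SET8 shRNA, against 8.55 and 9.43 with control shRNA in Wnt3a medium and 8.37 and 8.92 in control medium. Its difference was 1.02 (SE 0.35), on the same side as NEFL and opposite to NEFH, and a further probe set gave 0.84 (SE 0.33). DES, the desmin of muscle, was below the filter at 0.82 (SE 0.34), with further probe sets at 0.95 (SE 0.34) and -0.13 (SE 0.41).

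Of the other olfactomedin-domain genes 6 of 11 were tested, with 4 above 0 and 2 below, a median of 0.09 and 0 past the threshold. OLFML3, a secreted olfactomedin-like protein, read 6.35 and 6.56 with SET8 shRNA, against 7.33 and 7.64 with control shRNA in Wnt3a medium and 7.83 and 8.77 in control medium, a difference of -1.03 (SE 0.34) between the shRNAs. A further OLFML3 probe set, below the filter, gave a smaller difference of -0.48 (SE 0.31). GLDN, or gliomedin, was below the filter at 1.14 (SE 0.39), and ADGRL1, a latrophilin receptor, was at 0.85 (SE 0.28). OLFM1 is known to bind the Nogo receptor, which restrains axon growth. Of 7 genes of that receptor complex all were tested, 6 were above 0 and 1 below, with a median of 0.40 and 0 past the threshold. NGFR, the p75 co-receptor, was at 0.82 (SE 0.23) and on a further probe set at 0.46 (SE 0.23), and RTN4R, the receptor itself, at 0.56 (SE 0.32).

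REST, the repressor known to hold many neuronal genes silent outside neurons, read 7.82 and 7.68 with SET8 shRNA, against 7.46 and 6.83 with control shRNA in Wnt3a medium and 7.27 and 7.80 in control medium. The difference between the shRNAs was 0.60 (SE 0.31), and the SET8 shRNA arrays did not stand apart from those in control medium. With its co-repressors, 5 of 6 tested genes were above 0 with a median of 0.19 and 0 past the threshold, SIN3A at 0.44 (SE 0.26) among them.

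**Figure D4:**
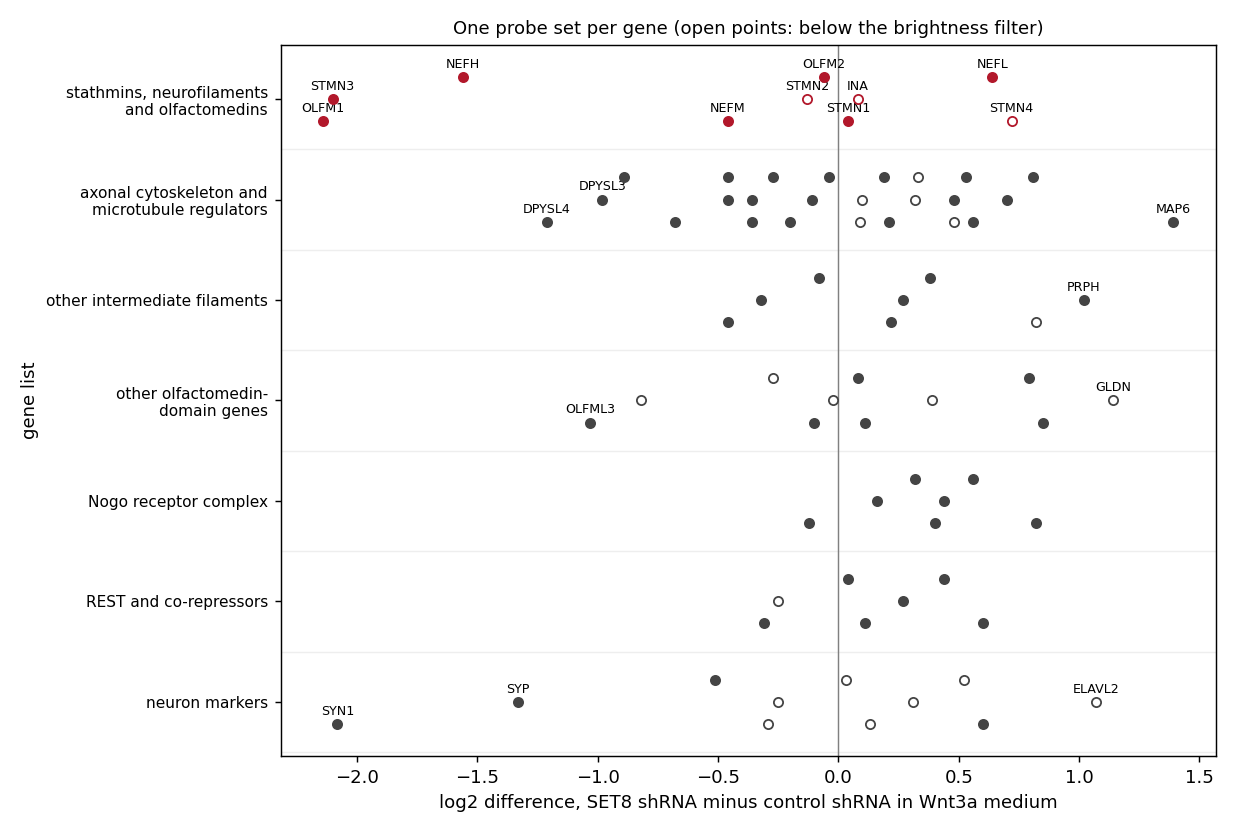
Log2 difference between SET8 and control shRNA in Wnt3a medium (x axis, log2 units) for 1 probe set per gene, the brightest, by gene list (y axis), with the members in red and open points below the brightness filter. The members run from OLFM1 at -2.14 to STMN4 at 0.72, and MAP6 at 1.39 and SYN1 at -2.08 mark the ends of the other lists plotted.

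Summed linear intensity in the SET8 shRNA arrays was lower for neuron, chromaffin and sympathetic, blood cell and fibroblast markers. Each sum weighs its brightest genes most, as SYP among the neuron markers and COL1A1 among the fibroblast markers. A lower sum therefore does not show that a whole list was lower. Of 11 neuron markers, 4 were bright enough to test, and 7 lay below the median in every array, RBFOX3, ELAVL3, ELAVL4 and SNAP25 among them. The summed intensity of the list was 5903 to 6908 with SET8 shRNA, against 10029 to 11266 with control shRNA in Wnt3a medium and 8889 to 10164 in control medium. SYN1 (synapsin I) was at -2.08 (SE 0.29), and a further probe set at -1.48 (SE 0.23), and SYP (synaptophysin) at -1.33 (SE 0.25). Of the 4 tested neuron markers 3 were below 0 and 1 above, with a median of -0.92. ENO2, the neuronal enolase, was the one above, at 0.60 (SE 0.23), and ELAVL2, an RNA-binding protein below the filter, was at 1.07 (SE 0.30), both apart in the higher direction. For 6 chromaffin and sympathetic markers the sum was 414 to 449 with SET8 shRNA, against 833 to 1450 in Wnt3a medium and 942 to 1290 in control medium, with the granins CHGB at -2.90 (SE 0.41) and CHGA at -2.11 (SE 0.44), and TH and DBH among the markers below the median in every array. Blood cell markers (5 genes) summed to 1022 to 1061 with SET8 shRNA, against 2084 to 2199 in Wnt3a medium and 1630 to 2151 in control medium, with HBA1 at -1.65 (SE 0.38), CD68 at -1.07 (SE 0.26), and HBB and PTPRC below the median in every array. Of 8 fibroblast markers 4 lay below the median in every array, and the sums were 4605 to 5004 with SET8 shRNA, against 6232 to 7089 in Wnt3a medium and 5974 to 6250 in control medium, with COL1A1 at -0.50 (SE 0.23) and FAP at 0.42 (SE 0.40). In the SET8 comparison the 2 tested fibroblast markers were below 0, and those below the filter lay on both sides of 0. Between the media with control shRNA, these sums hide lower values in Wnt3a medium of the dimmer markers. DCN differed by -2.09 (SE 0.37), COL1A2 by -1.58 (SE 0.42), THY1 by -1.35 (SE 0.38) and FAP by -1.12 (SE 0.40). COL3A1 was at -0.85 (SE 0.34) and PDGFRA at -0.49 (SE 0.28), whereas COL1A1 was at 0.28 (SE 0.23) and LUM at 0.21 (SE 0.45). All but COL1A1 and COL3A1 were below the filter. Glia markers summed to 2063 to 2521, against 2261 to 3667 and 2818 to 3912 in the same order of groups, with 5 of 6 below the median in every array and MBP at -0.37 (SE 0.34). The sums of the 8 epithelial and kidney line markers overlapped between the shRNAs, at 57626 to 61359 with SET8 shRNA, against 57429 to 60834 in Wnt3a medium and 55088 to 58683 in control medium, with CDH1 at 0.62 (SE 0.32) and EPCAM at 0.49 (SE 0.24). None of these markers passed the threshold in any comparison, and their part in the members' values was not tested.

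The genes whose profile over the 6 arrays was most like that of STMN3 and OLFM1 were sought among 3471 tested probe sets with an SD of at least 0.5. For STMN3 (BC009381) the closest by Pearson correlation were MMS19 (0.995), PCSK2 (0.995), CNP (0.994), DCTPP1 (0.992) and BEX2 (0.991). For OLFM1 (NM_014279) they were OAS1 (0.996), TMEM127 (0.995), SYN1 (0.995), ZP3 (0.995) and KDM4C (0.994). PCSK2, a prohormone convertase, read 8.42 and 8.34 with SET8 shRNA, against 10.47 and 11.15 with control shRNA in Wnt3a medium and 10.47 and 10.83 in control medium. All 10 were lower in both SET8 shRNA arrays than in the other 4, so the likeness over 6 arrays is largely that step, and 99 probe sets for STMN3 and 115 for OLFM1 had a correlation over 0.95.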

How the data were processed

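Total RNA of 6 HEK293 samples was hybridised to single-colour arrays. The authors deposited 1 linear intensity per probe set and array, summarised with RMA per the submitters' processing notes, with version and settings not given in the sources used here. A set has 3 probes, and coordinates are hg18, as the deposited files give them. Symbols were updated through the Entrez ID (86.4% of 45033 probe sets matched). Values were log2-transformed as deposited, and the 23808 probe sets above their array's median in at least 2 arrays were fitted with limma 3.58.1 in R 4.3.3 (lmFit, eBayes, 3 groups, all 6 arrays), checked on simulated data. Adjusted p-values are Benjamini-Hochberg over all tested probe sets, with a threshold of 0.05. Values are per array, and SE is moderated. The members and lists were chosen with earlier results of these data known. Lists use the brightest probe set per gene. From each list the text names called genes, or, as none was called, the 2 whose SET8 difference was largest in size. Some marker genes of the lists are not reported here. TUBB3, ADGRL1, ENO2 and ELAVL2, and the medium differences of the fibroblast markers, were chosen after their values were seen. With 2 arrays per group, the number of arrays limits the precision.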

Additional observations from a re-analysis of the deposited data

How the results depend on the processing

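The log2 differences of STMN3, NEFH, NEFL, NEFM, OLFM1, STMN2 and STMN4 between the shRNAs in Wnt3a medium kept their direction on every probe set under all alternatives run, with STMN3 between -2.29 and -1.91, NEFH between -1.63 and -1.18 and NEFL between 0.46 and 0.94. OLFM1 (NM_014279) ran from -2.34 to -1.33, the last with its dimmer probe sets averaged in. Alternatives that change only the filter, the threshold or the estimate of the spread cannot alter a difference. Leaving out an array cannot reverse one either where the groups do not overlap, as for all genes named here but STMN2. The kept direction was thus largely fixed in advance, and no robustness is read from it.

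Counts of probe sets called moved more. For SET8 shRNA in Wnt3a medium the count was 0, and 19 at an adjusted p under 0.1, 15 with an intensity trend, 28 with only the 4 arrays, and 0 to 28 without 1 array. For Wnt3a it was 0, and 2 at an adjusted p under 0.1, with a filter at the 60th percentile or with an intensity trend. For the combined comparison it was 12, and 45 with 32 added to each intensity, 156 at an adjusted p under 0.1, 52 with that stricter filter, 31 with an intensity trend, 0 with no filter, 230 with only the 4 arrays, 49 with probe sets of a gene averaged, 6 when quantile normalised again, and 0 to 230 without 1 array, with 0 when either SET8 shRNA array was left out and 230 when either control shRNA array in Wnt3a medium was. A group left with 1 array is assumed to vary like the others, so leaving out an array of the group outside a comparison gives the same count as only its 4 arrays. With the replicate block it was 0, as it was for both other comparisons. The numbers are not known to pair the samples. With the SET8 numbers crossed in the replicate block, an alternative chosen after the data were seen because the replicate differences correlated at -0.29, the counts were 182 for SET8, 3 for Wnt3a and 792 combined. In the SET8 comparison OLFM1 (NM_014279) and both STMN3 probe sets, not called as reported, passed the threshold with an intensity trend (limma adjusted p 0.0408), with only the 4 arrays or without either control medium array (0.0423), at the looser threshold of 0.1, and with the crossed block (0.0164), in which NEFH NM_021076 passed too (0.0287). The OLFM1 call in the combined comparison was also lost with centred arrays (limma adjusted p 0.0517), with no filter (0.165), when quantile normalised again (0.0504) and with the replicate block (0.103). A slide block was not run, since the files name no slide.

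Values near 0 changed sign. NEFL NM_006158 for Wnt3a was 0.13 with probe sets averaged, STMN1 BC082228 was -0.10 for SET8 and 0.03 for Wnt3a in that setting, and STMN1 NM_203399 was -0.016 in the combined comparison with centred arrays. Without 1 array, SET8 differences ran from -0.82 to 0.97 for INA, -0.22 to 0.10 for OLFM2, and on STMN1 from -0.12 to 0.29 (BC014353), -0.065 to 0.14 (BC082228) and -0.37 to 0.14 (NM_203399). Wnt3a differences ran from -0.77 to 2.12 for INA, -0.10 to 0.39 for NEFH AB020652, -0.088 to 0.31 for NEFL BC066952, -0.21 to 0.14 for NEFL NM_006158, -0.30 to 0.044 for STMN1 BC014353, -0.056 to 0.42 for STMN1 NM_005563 and -0.20 to 0.37 for STMN3 NM_015894. Combined differences ran from -0.69 to 2.20 for INA and on STMN1 from -0.25 to 0.16 (BC014353), -0.19 to 0.015 (BC082228) and -0.18 to 0.33 (NM_203399). The cause was not tested.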
